A study of Homo sapiens with 6 samples.

Results

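The genes described are the G1 cyclins and the kinases they switch on: CCND1, CCND2, CCND3, CCNE1, CCNE2, CDK2, CDK4 and CDK6. They were chosen by name, and all 8 had a line in the deposited table of 20263 genes. The values come from poly(A) RNA-seq of the established human colorectal cancer line HCT116, with 3 libraries of cells treated with CSE and 3 libraries labelled wild type (WT). The labels do not spell out CSE; with smoking in the series title it is read here as cigarette smoke extract, and the sources used here state neither the dose, the time of exposure nor a vehicle. Both groups are cultures of the same line, with no other genotype or agent named, and nothing in the labels says whether the libraries of 1 group are separate cultures, so p-values cover the spread between libraries, which may be technical.

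Cells pass from G1 into S phase when cyclin-dependent kinases phosphorylate the retinoblastoma protein and release E2F transcription factors. D-type cyclins (CCND1, CCND2, CCND3) respond to growth signals and activate CDK4 and CDK6; E-type cyclins (CCNE1, CCNE2) are themselves E2F-controlled and activate CDK2. In the intestine CCND1 is best known as a gene that Wnt and mitogen signals turn on. Cyclin and kinase activity is set largely by protein stability, inhibitors and phosphorylation, which mRNA values do not measure.

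Values are TPM, corrected for transcript length and scaled to the same library total, so levels can be set side by side between genes but the depth of each library is unknown. Of the 20263 genes, 12793 reached 1 TPM in at least 3 libraries and were tested. Mitochondrially encoded genes held 25.5% to 25.8% of the TPM in CSE libraries and 27% to 30.2% in WT libraries. Of 10 colorectal epithelial markers 7 were expressed, of which CDX2 was lowest, at 8.29 to 10.54 TPM, whereas CDX1 was listed at 0 and VIL1 and LGALS4 stayed under 1 TPM in all 6 libraries. The list summed to 5585 to 5884 TPM in CSE and 5332 to 5589 TPM in WT. Within it KRT18 was lower and KRT19 higher in every CSE library than in any WT library. Of 7 fibroblast markers 6 stayed under 1 TPM, with DCN at 0 throughout; the list summed to 38.04 to 38.7 TPM in CSE and 43.9 to 46.0 TPM in WT, nearly all of it COL1A1. Of 6 leukocyte markers 4 stayed under 1 TPM in all libraries; the list summed to 12.9 to 13.8 TPM in CSE and 19.2 to 19.6 TPM in WT, mostly CD68, with PTPRC, the defining gene, at most at 0.03 TPM. All 4 endothelial markers were under 1 TPM, summing to 1.31 to 1.53 TPM in CSE and 0.75 to 1.22 TPM in WT. The part of these marker differences in the results below was not tested. In such bulk libraries a change in the share of cells in one phase of the cycle and a change of mRNA per cell cannot be told apart.

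With CSE, both of the major G1 cyclin mRNAs were lower and CDK6 was higher, while CDK2 and CDK4, the abundant kinases, did not pass the test. CCNE1 had 0.717 times and CCND1 0.821 times the WT level, and CDK6 had 1.30 times the WT level. Of the 7 members tested, 1 rose, 2 fell and 4 did not pass limma's test at an adjusted p of 0.05. In the same comparison 50.1% of all genes tested passed (24.5% higher and 25.6% lower), so 3 of 7 members is no more than the background share. The median size of the change, as log2(TPM + 1), was 0.15 for the 7 members and 0.14 for all genes tested. Over all genes 3130 calls were higher and 3277 lower, or 2353 higher and 4548 lower once the remaining genes were rescaled without the mitochondrially encoded ones. Against a change of at least 1.2-fold, 6.96% of all genes passed, and among the members CCNE1 alone did.

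**Figure D1:**
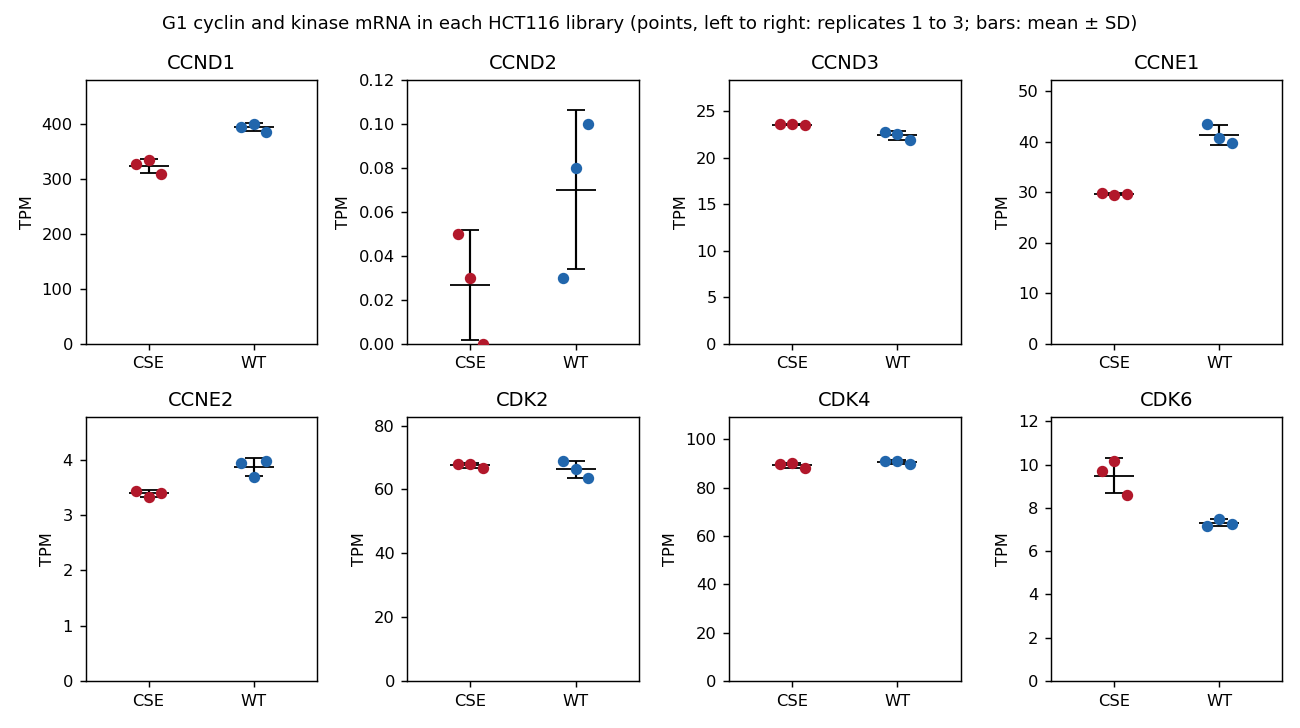
TPM of each of the 8 members (y axes, each from 0 on its own scale) in the 3 CSE and 3 WT libraries; points are libraries and bars the mean ± SD. CCND1 and CCNE1 lie lower in every CSE library than in any WT library, CDK6 lies higher in every CSE library, and CDK2 and CDK4 overlap.

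CCND1, the main D-type cyclin gene of these cells (ENSG00000110092, GRCh38 chromosome 11, 69641087 to 69654474, plus strand), was at 328, 335 and 310.1 TPM in the CSE libraries and at 396, 401 and 387 TPM in the WT libraries. Every CSE library lay lower than every WT library. It averaged 324 ± 12.8 TPM in CSE and 395 ± 7.23 TPM in WT (SD, n = 3 each), a log2 fold change of -0.28 (SE 0.0383, 95% interval -0.36 to -0.20, limma adjusted p = 2.81e-06). By mean TPM it ranked 253 of the 12793 genes tested, and by size of change 2607. On the opposite strand the gene LTO1 shares 497 exonic bases with CCND1 in GENCODE 29, and the strandedness of the libraries is not given. LTO1 was at 9.57 ± 0.850 TPM in CSE and 13.5 ± 0.223 TPM in WT (log2 fold change -0.46, limma adjusted p = 5.67e-06), and reads from the shared bases cannot be told apart.

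CCND3, the D-type cyclin best known from lymphoid cells, was far less abundant than CCND1 (ENSG00000112576, chromosome 6, 41934933 to 42050357, minus strand). Its TPM was 23.6, 23.7 and 23.5 in CSE and 22.8, 22.5 and 21.9 in WT. The groups did not overlap, yet the log2 fold change was 0.070 (95% interval -0.034 to 0.17) and did not pass (limma adjusted p = 0.253). CCND2, the third D-type cyclin (ENSG00000118971, chromosome 12, 4273772 to 4305350, plus strand), was listed at 0.05, 0.03 and 0 TPM in CSE and at 0.03, 0.08 and 0.10 TPM in WT. It fell under the filter on low values in both groups and was not tested there. Without that filter its log2 fold change was -0.059 (limma adjusted p = 0.28).

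CCNE1, the main E-type cyclin gene, had the largest change of the 7 tested members (ENSG00000105173, chromosome 19, 29811898 to 29824308, plus strand). It was at 29.8, 29.5 and 29.6 TPM in CSE and at 43.55, 40.8 and 39.7 TPM in WT. All CSE libraries lay lower than WT, with an SD of 0.178 TPM in CSE and 2.00 TPM in WT. The means of 29.6 TPM in CSE and 41.3 TPM in WT gave a log2 fold change of -0.47 (SE 0.0481, 95% interval -0.57 to -0.37, limma adjusted p = 6.76e-08), rank 797 of 12793 by size. CCNE2, its paralog (ENSG00000175305, chromosome 8, 94879770 to 94896678, minus strand), had 3.44, 3.33 and 3.41 TPM in CSE and 3.94, 3.69 and 3.98 TPM in WT. Its groups did not overlap, and its log2 fold change of -0.15 (95% interval -0.31 to 0.014) did not pass (limma adjusted p = 0.12). With mitochondrially encoded genes left out the change was -0.21 and passed (limma adjusted p = 0.0361), and it also passed without the variance trend (0.0249). CCNE2 shares 1629 exonic bases with INTS8 on the opposite strand, which was more abundant, at 45.4 ± 1.62 TPM in CSE and 43.7 ± 0.637 TPM in WT, so the CCNE2 level is uncertain.

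CDK4, the more abundant at the mRNA level of the kinases that D-type cyclins activate (ENSG00000135446, chromosome 12, 57747727 to 57756013, minus strand), measured 89.6, 90.1 and 87.9 TPM in CSE and 91.0, 91.0 and 89.7 TPM in WT. The groups overlapped, and the log2 fold change was -0.021 with a 95% interval of -0.10 to 0.060 (limma adjusted p = 0.674). CDK4 shares 1369 exonic bases with TSPAN31 on the opposite strand, which was at 11.8 ± 0.318 TPM in CSE and 12.5 ± 0.250 TPM in WT. CDK6, which binds the same cyclins (ENSG00000105810, chromosome 7, 92604921 to 92836594, minus strand), was the only member that rose. It was at 9.72, 10.2 and 8.60 TPM in CSE and at 7.17, 7.51 and 7.28 TPM in WT. All CSE libraries lay higher than WT, with CSE replicate 3 the lowest of them. The log2 fold change was 0.33 (SE 0.0690, 95% interval 0.19 to 0.48, limma adjusted p = 0.000405), or 0.40 without CSE replicate 3. CDK2, the kinase of the E-type cyclins (ENSG00000123374, chromosome 12, 55966769 to 55972784, plus strand), was at 67.9, 68.1 and 66.7 TPM in CSE and at 68.9, 66.5 and 63.5 TPM in WT. The groups overlapped, with a log2 fold change of 0.028 and a 95% interval of -0.062 to 0.12 (limma adjusted p = 0.619), and the sign turned to -0.030 with mitochondrially encoded genes left out and to -0.0031 without WT replicate 3. Exons of CDK2 share 565 bases on the opposite strand with the antisense gene AC025162.1, which was not analysed here, and 89 bases with PMEL, which was at 10.4 ± 0.965 TPM in CSE and 11.2 ± 0.581 TPM in WT. Overlaps with other genes not analysed here were 81 exonic bases for CDK6, 24 for CCND3, 4 for CCNE2, and 989 and 126 for CCND2.

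**Figure D2:**
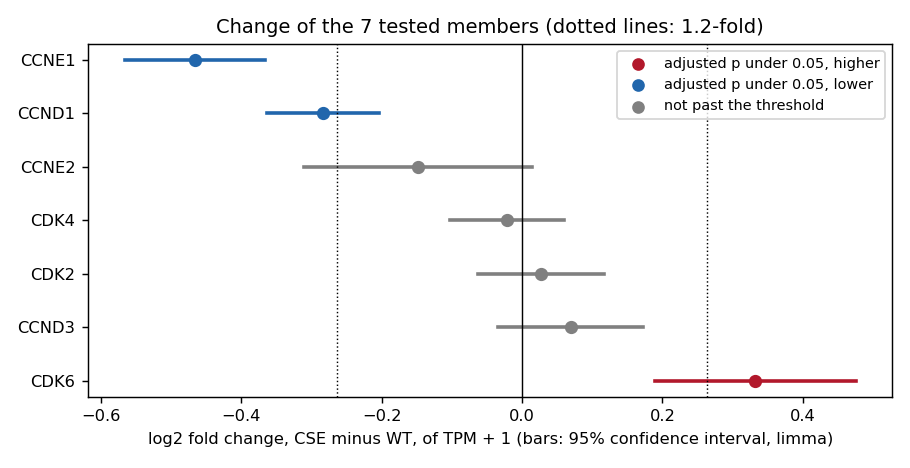
Log2 fold change, CSE minus WT, of TPM + 1 (x axis) for the 7 tested members (rows), with 95% confidence intervals from limma; dotted lines mark 1.2-fold. The intervals of CCNE1, CCND1 and CDK6 lie clear of 0, and that of CCNE1 alone lies wholly beyond 1.2-fold.

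The order of the levels was the same in CSE and in WT: CCND1 highest, then CDK4, CDK2, CCNE1, CCND3, CDK6, CCNE2 and CCND2. No neighbours in this order overlapped in either group. The closest by ratio were CCNE1 and CCND3 in CSE, at 29.5 to 29.8 TPM and 23.5 to 23.7 TPM; in WT the same pair was at 39.7 to 43.55 TPM and 21.9 to 22.8 TPM. By mean TPM over all libraries CDK4 ranked 1448, CDK2 2108, CCNE1 4181, CCND3 5970, CDK6 9572 and CCNE2 11148 of the 12793 genes tested. In all, 5 of the 7 tested members had groups that did not overlap, against 57.4% of all genes tested.

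Summing the members by role gave the balance between cyclins and kinases, and a ratio within a library does not depend on how that library was scaled. The summed D-type cyclins were at 351, 359 and 334 TPM in CSE and at 419, 424 and 409 TPM in WT. CDK4 and CDK6 together were at 99.3, 100.3 and 96.5 TPM in CSE and at 98.2, 98.5 and 97.0 TPM in WT. The cyclin total was lower in every CSE library, while the kinase total overlapped (exact permutation test, two-sided, p = 0.5). D-type cyclin TPM per CDK4 and CDK6 TPM was therefore 3.52 ± 0.0614 in CSE and 4.26 ± 0.0446 in WT (SD, n = 3 each). E-type cyclin TPM per CDK2 TPM was 0.489 ± 0.00680 in CSE and 0.682 ± 0.0115 in WT. Because the E-type total was lower by more (log2 difference -0.45) than the D-type total (-0.26), the ratio of D-type to E-type cyclins was 10.5 ± 0.413 in CSE and 9.24 ± 0.370 in WT.

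The less abundant CCND3, CCNE2 and CDK6 held a larger share of their pools with CSE, while CCND2, at 0.00753% of D-type cyclin TPM in CSE and 0.0168% in WT, overlapped between the groups. CCND3 itself did not pass (limma adjusted p = 0.253), and CCNE2, whose level is uncertain, averaged 3.39 TPM in CSE and 3.87 TPM in WT. CCND1 and CCNE1, the larger parts of these pools, were lower. The larger shares of CCND3 and CCNE2 are thus no sign that either gene rose. CCND3 made up 6.78% ± 0.227 of D-type cyclin TPM in CSE and 5.37% ± 0.0666 in WT, CCNE2 made up 10.3% ± 0.107 of E-type TPM in CSE and 8.57% ± 0.475 in WT, and CDK6 made up 9.61% ± 0.634 of the CDK4 and CDK6 total in CSE and 7.48% ± 0.162 in WT. The CSE and WT libraries did not overlap in any of these 3 shares or 3 ratios, nor in the cyclin totals. With 3 libraries against 3 the exact permutation test cannot go under p = 0.1, which each of them reached (two-sided; 0.108 adjusted by Benjamini-Hochberg over the 13 quantities tested), so none can pass 0.05.

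**Figure D3:**
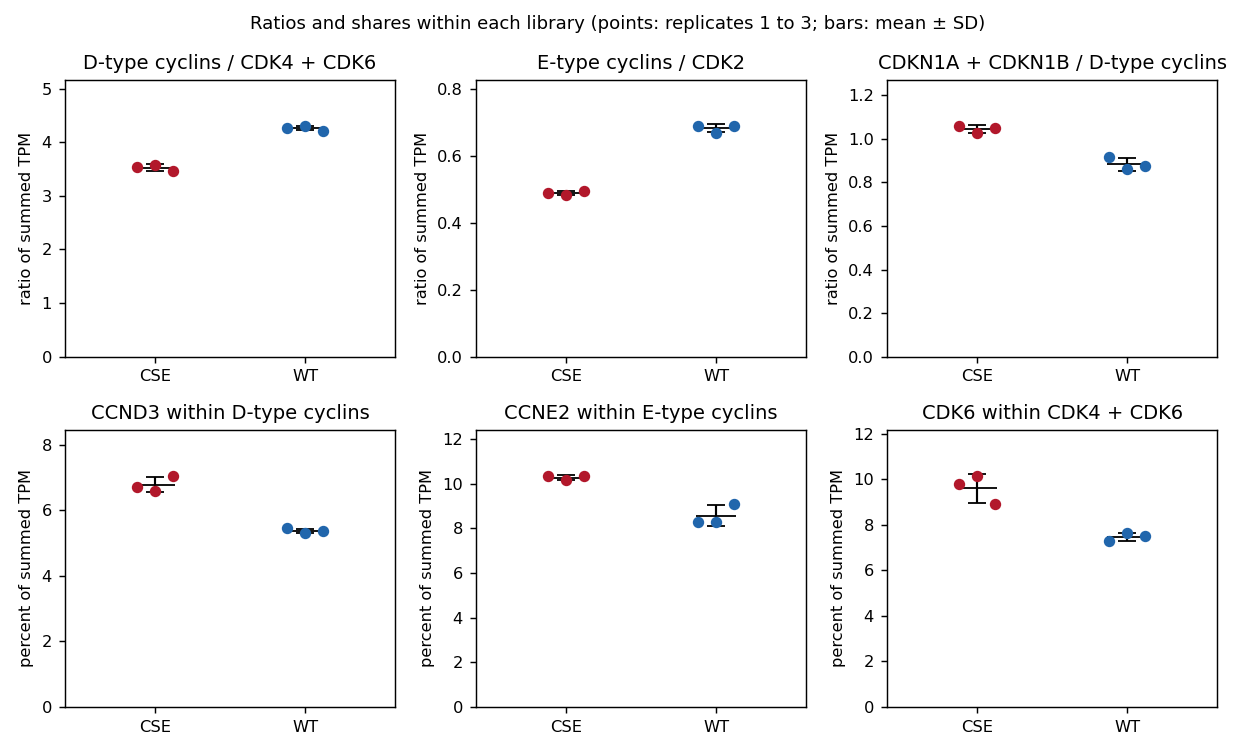
Ratios of summed TPM (upper row) and percent shares (lower row) within each library, y axes from 0; points are the 3 CSE and 3 WT libraries and bars the mean ± SD. Cyclin per kinase is lower in all CSE libraries. The ratio of CDKN1A and CDKN1B to D-type cyclins, whose total was lower with CSE, and the shares of CCND3, CCNE2 and CDK6 are higher in all of them.

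Promoter sequence is shown for the tested member with the largest fall (CCNE1), the only one that rose (CDK6) and CDK4, the more abundant of the pair of kinases that D-type cyclins activate, whose groups overlapped. Each line gives the 250 bases before the annotated start, from RefSeq on GRCh38.p14, read 5′ to 3′ along the gene. The table used held a promoter for 4 of the 8 members (CCND3, CCNE1, CDK4 and CDK6). In CCNE1 and CDK6, whose windows are chr19:29811741-29811990 (plus strand) and chr7:92836574-92836823 (minus strand), capitals mark the Sp1 motif GGGCGG on either strand. In CDK4 (chr12:57752311-57752560, minus strand) capitals mark the E-box CACGTG, the motif of MYC and its partner MAX.
CCNE1: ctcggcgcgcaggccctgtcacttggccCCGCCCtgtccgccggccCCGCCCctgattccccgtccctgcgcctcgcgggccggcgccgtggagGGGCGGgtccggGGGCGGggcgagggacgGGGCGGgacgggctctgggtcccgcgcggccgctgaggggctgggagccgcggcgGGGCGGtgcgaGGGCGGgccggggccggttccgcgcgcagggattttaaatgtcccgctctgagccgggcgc
CDK6: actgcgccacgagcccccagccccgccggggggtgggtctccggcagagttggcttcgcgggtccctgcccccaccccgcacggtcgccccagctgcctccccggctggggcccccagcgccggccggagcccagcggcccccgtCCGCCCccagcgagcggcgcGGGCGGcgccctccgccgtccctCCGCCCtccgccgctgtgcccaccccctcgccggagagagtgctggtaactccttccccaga
CDK4: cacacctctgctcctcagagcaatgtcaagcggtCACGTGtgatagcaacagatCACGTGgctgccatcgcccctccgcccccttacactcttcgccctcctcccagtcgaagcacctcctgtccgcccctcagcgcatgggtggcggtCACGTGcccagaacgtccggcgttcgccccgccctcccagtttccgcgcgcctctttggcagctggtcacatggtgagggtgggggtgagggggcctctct

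The CCNE1 window held 7 matches to GGGCGG, the CDK6 window 3 and the CDK4 window also 3 (left in lower case above), a motif present in 42.6% of 35116 such windows, so its presence does not set the genes that changed apart from CDK4. The second CDK6 window of the table, at another start, held 0. GC content was 81.2% in CCNE1, 80.0% in CDK6 and 65.6% in CDK4, against a median of 58.0% over all windows. The CDK4 window held 3 matches to CACGTG, starting 216, 196 and 101 bases before the start, and 6.34% of all windows held at least 1. MYC itself fell to 332 ± 19.6 TPM in CSE, against 466 ± 13.6 TPM in WT (log2 fold change -0.49, limma adjusted p = 4.31e-09). Whether MYC acts on CDK4 through these matches was not tested. On both strands the windows were also searched for 2 E2F motifs, TTTCCCGC (1.39% of all windows) and TTTGGCGC (0.55%), for AP-1 (TGANTCA, 6.57%), TCF/LEF (CTTTGAT, 2.26%), CRE (TGACGTCA, 1.65%), STAT (TTCNNNGAA, 6.57%) and for TATAAA (10.7%). None of these letters occurred in the 3 windows printed. A match describes the letters and is not a measured binding site.

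Genes around the members in the G1 pathway moved in several directions. Of the 7 CDK inhibitor genes 5 rose and 2 did not pass (median log2 fold change 0.28), against 24.5% of all genes tested that rose and a median of -0.0039 over them. CDKN2A, which encodes an inhibitor of CDK4 and CDK6 and, in another frame, the ARF protein, was at 30.5, 28.7 and 31.3 TPM in CSE and at 19.1, 16.5 and 16.6 TPM in WT. All CSE libraries lay higher (log2 fold change 0.76, limma adjusted p = 8.47e-10), and gene-level values do not separate its products. CDKN1B, the p27 inhibitor of cyclin E with CDK2, rose to 43.5 ± 1.61 TPM in CSE, against 37.2 ± 2.50 TPM in WT (0.22, limma adjusted p = 0.00114). CDKN1A, the p21 inhibitor and the most abundant of them, was at 320.3 ± 10.6 TPM in CSE and 332 ± 12.1 TPM in WT and did not pass (-0.050, limma adjusted p = 0.301). It was called lower under quantile normalization (-0.11, limma adjusted p = 0.0124) and with mitochondrially encoded genes left out (-0.11, 0.0104). CDKN1A and CDKN1B together had 1.05 ± 0.0171 TPM per TPM of D-type cyclins in CSE and 0.884 ± 0.0304 in WT, with no overlap (exact permutation test, two-sided, p = 0.1, the smallest this design allows). CDKN1A, most of this sum, did not pass, and the D-type cyclin total averaged 348 TPM in CSE and 417 TPM in WT. The higher ratio is thus no sign that the sum of the inhibitors rose.

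In the RB and E2F family 1 of 13 genes rose and 4 fell (median -0.059), against 24.5% higher and 25.6% lower over all genes tested. E2F1, the activating E2F best known at the G1/S switch, was at 17.9, 18.4 and 20.5 TPM in CSE and at 29.9, 29.1 and 27.5 TPM in WT, lower in every CSE library (-0.59, limma adjusted p = 2.69e-08). RB1, the retinoblastoma gene, was at 36.4 ± 2.49 TPM in CSE and 32.1 ± 2.11 TPM in WT (0.18, limma adjusted p = 0.0123). Its call was lost without WT replicate 3 (0.12, limma adjusted p = 0.0984), with mitochondrially encoded genes left out (0.0736) and without the filter (0.0636).

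Of 21 genes that E2F controls at G1/S, 10 rose, 8 fell and 3 did not pass (median 0.066). Over all genes tested 24.5% rose and 25.6% fell, so a larger part of this list was called in each direction. That difference was not tested. CCNA2, the cyclin that follows cyclin E on CDK2, rose to 72.0 ± 2.97 TPM in CSE, against 52.0 ± 1.86 TPM in WT (0.46, limma adjusted p = 3.31e-08). RRM2, a subunit of ribonucleotide reductase, rose most of the list (0.57, limma adjusted p = 6.09e-10). CDC6, which loads the replicative helicase, fell most, to 41.4 ± 1.13 TPM in CSE, against 54.9 ± 1.08 TPM in WT (-0.40, limma adjusted p = 1.88e-07).

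**Figure D4:**
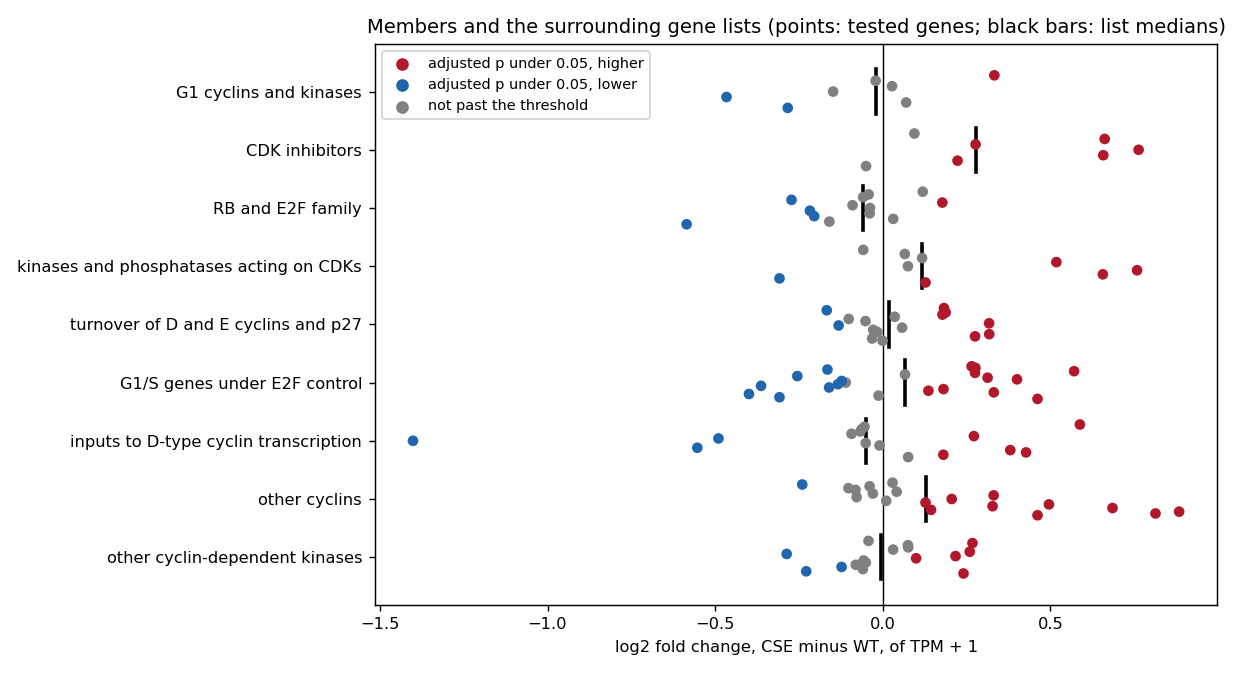
Log2 fold change, CSE minus WT, of TPM + 1 (x axis) for every tested gene of the members and of 8 surrounding lists (rows), with black bars at the list medians and vertical scatter only for legibility. The CDK inhibitors have 5 of 7 genes higher and the members 1 of 7, beside 24.5% of all genes tested, and JUN is the point at -1.40.

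Of 9 genes whose products act directly on CDKs, 4 rose and 1 fell (median 0.12), against 24.5% higher and 25.6% lower over all genes tested. The phosphatase gene CDC25A, which activates CDK2 in G1/S, fell to 8.76 ± 0.842 TPM in CSE, against 11.1 ± 0.296 TPM in WT (-0.31, limma adjusted p = 0.000715). CDC25C, the phosphatase of mitotic entry, rose to 24.1 ± 0.715 TPM in CSE, against 13.9 ± 0.627 TPM in WT (0.76, limma adjusted p = 3.15e-10). Among 16 genes of cyclin and p27 turnover 6 rose and 2, USP2 and FBXO31, fell (median 0.017), or 4 rose without WT replicate 3. The other 8 did not pass, so about the background share of 50.1% was called. CUL1, the scaffold of the ubiquitin ligases that remove cyclin E and p27, rose to 51.3 ± 1.54 TPM in CSE, against 40.9 ± 1.53 TPM in WT (0.32, limma adjusted p = 7.4e-06). USP2, a deubiquitinase known to stabilise cyclin D1, was at 7.95 ± 0.468 TPM in CSE and 9.05 ± 0.521 TPM in WT (-0.17, limma adjusted p = 0.0449). The USP2 call ended without CSE replicate 1 (-0.19, limma adjusted p = 0.0502), CSE replicate 3 (-0.12, 0.102), WT replicate 1 (-0.14, 0.152) or WT replicate 2 (-0.15, 0.148), and without the filter (0.0975). FBXO31, a ubiquitin ligase subunit gene (-0.13, limma adjusted p = 0.0297), named after its values were seen, was not called in those 4 cases of a library left out either, so neither fall of the list was then called.

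Of 15 tested genes that feed into D-type cyclin transcription 5 rose and 3 fell (median -0.051). The other 7 did not pass, so about the background share was called. Over all genes tested 50.1% passed (24.5% higher and 25.6% lower). JUN, an AP-1 subunit, fell to 46.7 ± 0.569 TPM in CSE, against 125 ± 4.69 TPM in WT (-1.40, limma adjusted p = 1.2e-16). TCF7L2, the main TCF partner of beta-catenin in the intestine, rose to 125 ± 7.18 TPM in CSE, against 82.5 ± 0.759 TPM in WT (0.59, limma adjusted p = 5.02e-10). With mitochondrially encoded genes left out the number lower in this list was 6 and not 3.

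Other cyclin and kinase genes were compared with the members only by count. Of 19 other cyclin genes tested 10 rose and 1 fell, or 2 fell under the 3 other scalings (median 0.13), led by the mitotic cyclin CCNB2 (0.88, limma adjusted p = 6.57e-13), while CCNY, a membrane-tethered cyclin, fell (-0.24, limma adjusted p = 0.000264). Of the 4 G1 cyclin genes tested 2 fell and the other 2 did not pass. Over all genes tested 50.1% passed (24.5% higher and 25.6% lower), so 2 of 4 is about the background share. Of 16 other cyclin-dependent kinases 5 rose and 3 fell (median -0.0061), or 4 and 5 once genes of the mitochondrial genome were dropped. CDK8, the Mediator kinase, rose to 33.1 ± 0.284 TPM in CSE, against 27.3 ± 0.899 TPM in WT (0.27, limma adjusted p = 8.93e-05), and CDK18 fell to 39.6 ± 2.53 TPM in CSE, against 48.4 ± 1.49 TPM in WT (-0.29, limma adjusted p = 6.62e-05). These counts were not tested against each other.

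The genes whose pattern over the 6 libraries lay nearest to CCNE1 and to CDK6 were found among 10640 other named genes with a mean of at least 5 TPM. Likeness was the root mean square difference of log2(TPM + 1), each gene centred on its WT mean. Nearest to CCNE1 were MELTF, an iron-binding surface protein gene (0.0095), IRAK1, a kinase gene of interleukin-1 and Toll-like receptor signalling (0.0166), and PYGB, a glycogen phosphorylase gene (0.0177). MELTF was at 37.5 ± 0.304 TPM in CSE and 51.9 ± 2.64 TPM in WT, and like CCNE1 it varied more among the WT libraries. Nearest to CDK6 were TTC12 (0.0216), ZNF704, a zinc finger gene (0.0234), and DROSHA, the nuclease gene of microRNA processing (0.0254). In all 3, as in CDK6, CSE replicate 3 had the smallest rise, at 0.17 in TTC12, 0.25 in ZNF704, 0.23 in DROSHA and 0.21 in CDK6 relative to the WT mean. These genes were picked by likeness over the same 6 libraries, so the traits they share with CCNE1 or CDK6 follow from the selection. With 2 groups of 3 libraries such likeness is a description.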

How the data were processed

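Poly(A) RNA of 6 HCT116 samples was sequenced, 3 treated with CSE and 3 WT by their labels. The authors deposited TPM for 20263 genes, with 2 decimals and 1 column per sample; 0 columns were left unmapped. HISAT2 2.0, Trimmomatic 0.36, bedtools 2.26.0, FastQC 0.11.2 and GRCh38 appear, without roles, in the submitters' processing notes; the counting program, annotation and strandedness are not stated there. TPM keeps no depth, so no counting interval or floor was computed, and because it is a share, abundant transcripts move all others.

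Symbols were matched for 20148 genes and positions taken from GENCODE 29. The 12793 genes that reached 1 TPM in 3 or more libraries were transformed to log2(TPM + 1), which understates changes of low genes, and tested with limma 3.58.1 in R 4.3.3 (trended prior, Benjamini-Hochberg, 0.05), after a test on simulated data. Totals and ratios used exact permutation tests (SciPy 1.17.1). The members and lists were chosen with earlier results of these data known. Named are all 8 members; per list, the called genes with the largest rise and fall; CDKN1A, CDKN1B, RB1, E2F1, CCNA2, MYC and JUN; and the 3 nearest genes by pattern to the members with the largest rise and fall. Of 10 genes with exons overlapping a member in GENCODE 29, the 4 with a line in the table used were added. The settings varied were the pseudocount (0.1), the filter (none, or a mean of 5 TPM), the scaling (median-of-ratios, quantile, or without mitochondrially encoded genes), the prior (untrended, or robust), a replicate block, a 1.2-fold null and each library left out.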

Additional observations from a re-analysis of the deposited data

How the results depend on the processing

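CCNE1 kept its direction and passed in all 16 alternatives, with log2 fold changes of -0.53 to -0.43. CCND1 (-0.34 to -0.25) and CDK6 (0.29 to 0.40) did so in 15 of 16. Against a 1.2-fold change 891 genes passed (431 higher, 460 lower), of which 1 was a member (0 higher, 1 lower), and CCND1 (-0.28, limma adjusted p = 1) and CDK6 (0.33, limma adjusted p = 1) did not; that test asks for a larger change. CCNE2 passed with mitochondrially encoded genes left out (-0.21) and without the variance trend (-0.15). CDK2, never called, turned to -0.030 with mitochondrially encoded genes left out, a rescaling that lowered the log2 fold change of every tested member. Without each library CDK2 ranged from -0.0031 to 0.055, and the cause of that range was not tested. With mitochondrially encoded genes left out INTS8 turned to -0.0019 and the CDK4 and CDK6 total to -0.046. All other totals, shares and ratios kept their direction. For the shares and ratios this rescaling could not do otherwise, as it multiplies all genes of a library alike. Nor could leaving out a library reverse a quantity whose groups did not overlap, so these settings do not test the direction of such quantities. At a mean TPM of at least 5, CCNE2 was not tested. The labels do not say whether the replicate numbers pair the samples, and no pairing was seen. Same-numbered deviations from the group means correlated at -0.071, 0.015 and -0.088, and 0 of 3 samples correlated best with their own number. With 3 samples per group this cannot exclude a pairing. With the replicate block 6537 genes were called, and CCND1 (limma adjusted p = 8.37e-05), CCNE1 (5.04e-06) and CDK6 (0.000768) passed. Depth is unknown, so what it limits for CCND2 and CCNE2 cannot be given.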
